A study of Arabidopsis thaliana with 27 samples.

Results

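SMALL AUXIN UP RNA (SAUR) genes lie in tandem runs along the Arabidopsis chromosomes, and 32 of them, in 6 runs on 5 chromosomes, were followed here in root tips. The members were the loci of these runs, taken by locus identifier, and the set was chosen with earlier results of these data known. Transcripts of a locus were summed. They are 32 of the 27313 genes in the quantified tables. A member was reported where it had at least 10 counts over the 3 libraries of at least 1 group, and 23 of the 32 reached that level. The other 9 stayed below it in every group, and SAUR2 (AT4G34780) and SAUR12 (AT2G21220) had no count in any library.

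RNA was sequenced from pooled root tips of young seedlings of 3 lines, in 9 groups of 3 libraries called A, B and C. Col-0 is the wild type and carries no transgene. In pG1090::XVE≫AXR3-1, estradiol switches on AXR3-1, a stabilized form of IAA17/AXR3 that represses auxin-induced transcription. In pG1090::XVE≫ΔMP, estradiol switches on ΔMP, a truncated ARF5/MP that activates auxin-induced transcription and escapes Aux/IAA repression. Each line was treated with DMSO for 90 min (mock), with estradiol for 90 min, or with estradiol for 180 min. The G1090 promoter is active in most tissues, so the transgene was not limited to the cells in which its product normally acts, and whether each line is a single insertion was not stated. There was no 180-min mock group, so a difference between 180 min of estradiol and mock also holds 90 min of time. The labels do not say that the libraries came from separate plates, so p-values measure the spread between these libraries.

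SAUR proteins are small plant proteins best known for auxin-driven cell elongation in shoots. SAUR19 and its relatives bind and inhibit D-clade PP2C phosphatases, which keeps plasma membrane H+-ATPases phosphorylated and active and acidifies the cell wall. Many SAUR transcripts appear within minutes of auxin treatment and are short-lived, while others do not respond to auxin or fall with it.

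The run on chromosome 1 holds SAUR61 (AT1G29420), SAUR62 (AT1G29430), SAUR63 (AT1G29440), SAUR64 (AT1G29450), SAUR65 (AT1G29460), SAUR66 (AT1G29500), SAUR67 (AT1G29510) and SAUR68 (AT1G29490). RefSeq gives AT1G29510 the symbol SAUR68 and lists SAUR67 as its synonym, and the names used here follow the locus given beside them. The run on chromosome 2 holds SAUR7 (AT2G21200), SAUR6 (AT2G21210) and SAUR12. The run on chromosome 3 holds SAUR29 (AT3G03820), SAUR28 (AT3G03830), SAUR27 (AT3G03840), SAUR73 (AT3G03847) and SAUR26 (AT3G03850). The longer run on chromosome 4 holds SAUR49 (AT4G34750), SAUR50 (AT4G34760), SAUR1 (AT4G34770), SAUR2, SAUR3 (AT4G34790), SAUR4 (AT4G34800) and SAUR5 (AT4G34810). The shorter one holds SAUR14 (AT4G38840), SAUR15 (AT4G38850) and SAUR16 (AT4G38860). The run on chromosome 5 holds SAUR19 (AT5G18010), SAUR20 (AT5G18020), SAUR21 (AT5G18030), SAUR22 (AT5G18050), SAUR23 (AT5G18060) and SAUR24 (AT5G18080). In the TAIR10.1 annotation the 6 runs span 21.9, 6.1, 7.1, 22.4, 6.3 and 21.5 kb in this order, and every member has a single coding exon. The coding sequences in the files are between 261 and 453 bases long.

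How well a read can be placed differs among the members, because tandem copies resemble each other. Coding sequences of the chromosome 5 run were the most alike, with 87.7 to 95.2% identical positions over 15 pairs. The first 60 coding bases of its 6 members (TAIR10.1, chromosome 5) are printed here to show this, with capitals at the bases that differ from the most common base at that position.
SAUR19: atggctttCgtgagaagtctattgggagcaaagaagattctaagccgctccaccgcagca
SAUR20: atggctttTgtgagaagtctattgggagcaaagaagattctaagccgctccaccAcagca
SAUR21: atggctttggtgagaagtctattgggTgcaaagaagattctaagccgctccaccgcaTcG
SAUR22: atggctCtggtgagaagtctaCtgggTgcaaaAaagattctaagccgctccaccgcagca
SAUR23: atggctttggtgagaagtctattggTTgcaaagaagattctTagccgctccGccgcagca
SAUR24: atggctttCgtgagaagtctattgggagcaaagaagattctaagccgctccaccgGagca
Between 1 and 4 of the 60 bases were off the common sequence. Of the 31-base words in SAUR19, 58.0% also occurred in another gene, and the share was 40.3% for SAUR24 and 37.1% for SAUR21. On chromosome 1 the shares were 43.7% for SAUR62, 34.3% for SAUR63 and 33.8% for SAUR67, whose words recurred in each other and in SAUR75 (AT5G27780), a SAUR gene outside the runs. SAUR64, SAUR65 and SAUR66 shared 4.5, 0.2 and 5.3%. Of the 32 members, 13 shared no such word and 7 shared over 25%. The values of those 7 depend on how the quantification divided shared reads, so each run was also tested as the sum of its members. A sum settles only the division inside a run, and words of the chromosome 1 run also recur in SAUR75 and AT1G29435, which are not members.

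**Figure D1:**
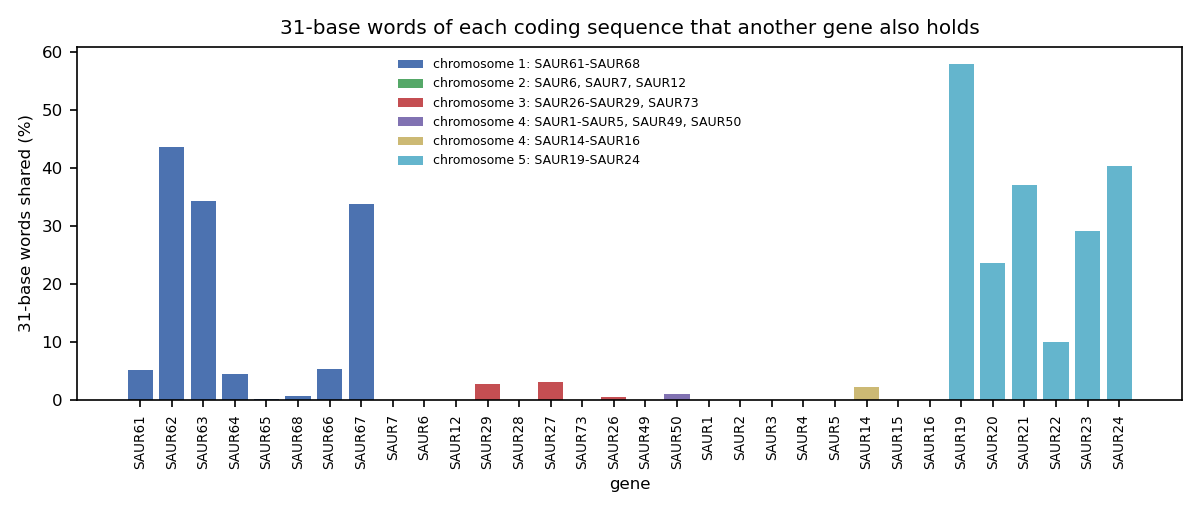
Percentage of the 31-base words of each coding sequence that another gene also holds (y axis), for the 32 members in order along each run (x axis), coloured by run. The chromosome 5 run and SAUR62, SAUR63 and SAUR67 of chromosome 1 stand above 20% except SAUR22, at 9.9%, and all other members are at 5.3% or less.

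Promoters were read from TAIR10.1 as the 250 bases before each annotated gene start, and searched on both strands for TGTCTC, the classical auxin response element, for its tighter-binding variant TGTCGG, and for the G-box CACGTG. The classical element occurred in 7 of the 32 member promoters (21.9%), against 10.9% of 27443 protein-coding genes. Its variant occurred in 2 (6.2% against 4.2%) and the G-box in none (against 6.5%). No member of the longer chromosome 4 run held any of the 3 motifs in this window. The promoters of 3 members that rose in ΔMP and of 2 members that fell are printed here 5′ to 3′ to set both kinds side by side, with the motif letters in capitals.
SAUR66, chr1:10320761-10321010, plus strand: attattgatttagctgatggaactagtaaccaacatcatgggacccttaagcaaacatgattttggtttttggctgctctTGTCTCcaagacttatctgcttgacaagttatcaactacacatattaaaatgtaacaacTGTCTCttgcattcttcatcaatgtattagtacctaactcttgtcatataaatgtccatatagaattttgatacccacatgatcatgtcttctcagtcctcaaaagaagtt
SAUR67, chr1:10322173-10322422, plus strand: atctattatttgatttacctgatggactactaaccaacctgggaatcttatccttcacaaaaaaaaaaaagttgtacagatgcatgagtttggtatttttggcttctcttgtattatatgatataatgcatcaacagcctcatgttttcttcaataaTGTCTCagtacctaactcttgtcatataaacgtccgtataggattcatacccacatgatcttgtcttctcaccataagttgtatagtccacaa
SAUR15, chr4:18125807-18126056, plus strand: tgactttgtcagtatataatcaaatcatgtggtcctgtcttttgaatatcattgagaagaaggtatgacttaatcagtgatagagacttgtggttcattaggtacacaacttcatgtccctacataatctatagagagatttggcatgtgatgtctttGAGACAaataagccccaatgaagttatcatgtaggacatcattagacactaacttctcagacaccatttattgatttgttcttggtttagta
SAUR4, chr4:16596390-16596639, plus strand: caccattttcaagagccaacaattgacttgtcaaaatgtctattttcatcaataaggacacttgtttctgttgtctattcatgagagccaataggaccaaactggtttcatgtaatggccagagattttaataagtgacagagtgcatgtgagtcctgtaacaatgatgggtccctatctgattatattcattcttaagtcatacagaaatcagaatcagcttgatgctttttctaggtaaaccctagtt
SAUR5, chr4:16598708-16598957, plus strand: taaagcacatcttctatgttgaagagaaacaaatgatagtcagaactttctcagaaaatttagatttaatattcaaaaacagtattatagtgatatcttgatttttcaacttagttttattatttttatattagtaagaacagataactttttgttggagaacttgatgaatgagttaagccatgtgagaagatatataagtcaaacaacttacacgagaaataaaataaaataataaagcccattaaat
SAUR66 held TGTCTC 170 and 111 bases before its start, and SAUR67 held it 93 bases before. In SAUR15 the match lies 92 bases before the start, on the opposite strand, and therefore reads GAGACA. SAUR4 and SAUR5 held no match. SAUR63, SAUR66 and SAUR67 also shared a stretch of 24 bases, agtacctaactcttgtcatataaa, which began 238, 83 and 87 bases before their starts and was found in no other promoter window. Of the 12 members called higher in ΔMP after 180 min, 4 held TGTCTC, 1 held its variant and 7 held neither, and SAUR7, with 3 matches, was near silent. The window of SAUR7 lies wholly within the annotated SAUR6 gene, on the same strand. The matches describe the letters only, and binding was not measured.

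The libraries held 13634037 to 34272503 assigned read pairs, with a median of 20071330. Transcript levels are given in TPM, a share of all transcripts in the library that is scaled for transcript length, so that members of unequal length can be set side by side. IAA17 rose from 142 ± 11.2 TPM in the AXR3-1 mock to 1185 ± 33.9 and 2538 ± 86.7 TPM after 90 and 180 min (SD, n = 3), and was 152 to 168 TPM in the Col-0 and ΔMP groups. ARF5 rose from 9.20 ± 0.23 to 928 ± 41.7 and 1395 ± 45.5 TPM in the ΔMP line, and was 9.63 to 10.1 TPM in the other lines. The 9 root tip marker genes were all expressed and summed to 533 to 744 TPM. The 8 markers of green tissue summed to 27.8 to 73.4 TPM over the libraries, with 2 of the 8 at a mean of 1 TPM or more and RBCS2B at 0 throughout. Their sum was 55 ± 2.07 TPM in the ΔMP mock, 69.8 ± 3.12 at 90 min and 43.7 ± 0.91 at 180 min, against 31 to 39.1 TPM in the groups of the other lines, and in the ΔMP line was thus highest at 90 min and lowest at 180 min, when the members below were highest. Its part in their values was not tested. The tissue is bulk, so more or fewer cells of a type and more or less RNA per cell cannot be told apart.

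The plot of member levels shows the overall pattern. SAUR4, SAUR5, SAUR49 and SAUR50 of chromosome 4 were expressed in all 27 libraries, and most other members were near silent outside the ΔMP line on estradiol. The 25 members outside the longer chromosome 4 run summed to 2.82 ± 0.83 TPM in the ΔMP mock, 17.1 ± 2.14 TPM after 90 min and 119 ± 12.9 TPM after 180 min of estradiol (SD, n = 3). In the 3 Col-0 groups and the 3 AXR3-1 groups the same sum lay between 1.72 and 5.57 TPM on average, and its highest single library was at 6.46 TPM, below the lowest ΔMP library at 90 min (15.5 TPM). Of these 25 members, 18 had at least 10 counts after 180 min in ΔMP and 11 after 90 min, against 1 or 2 in each of the other groups.

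**Figure D2:**
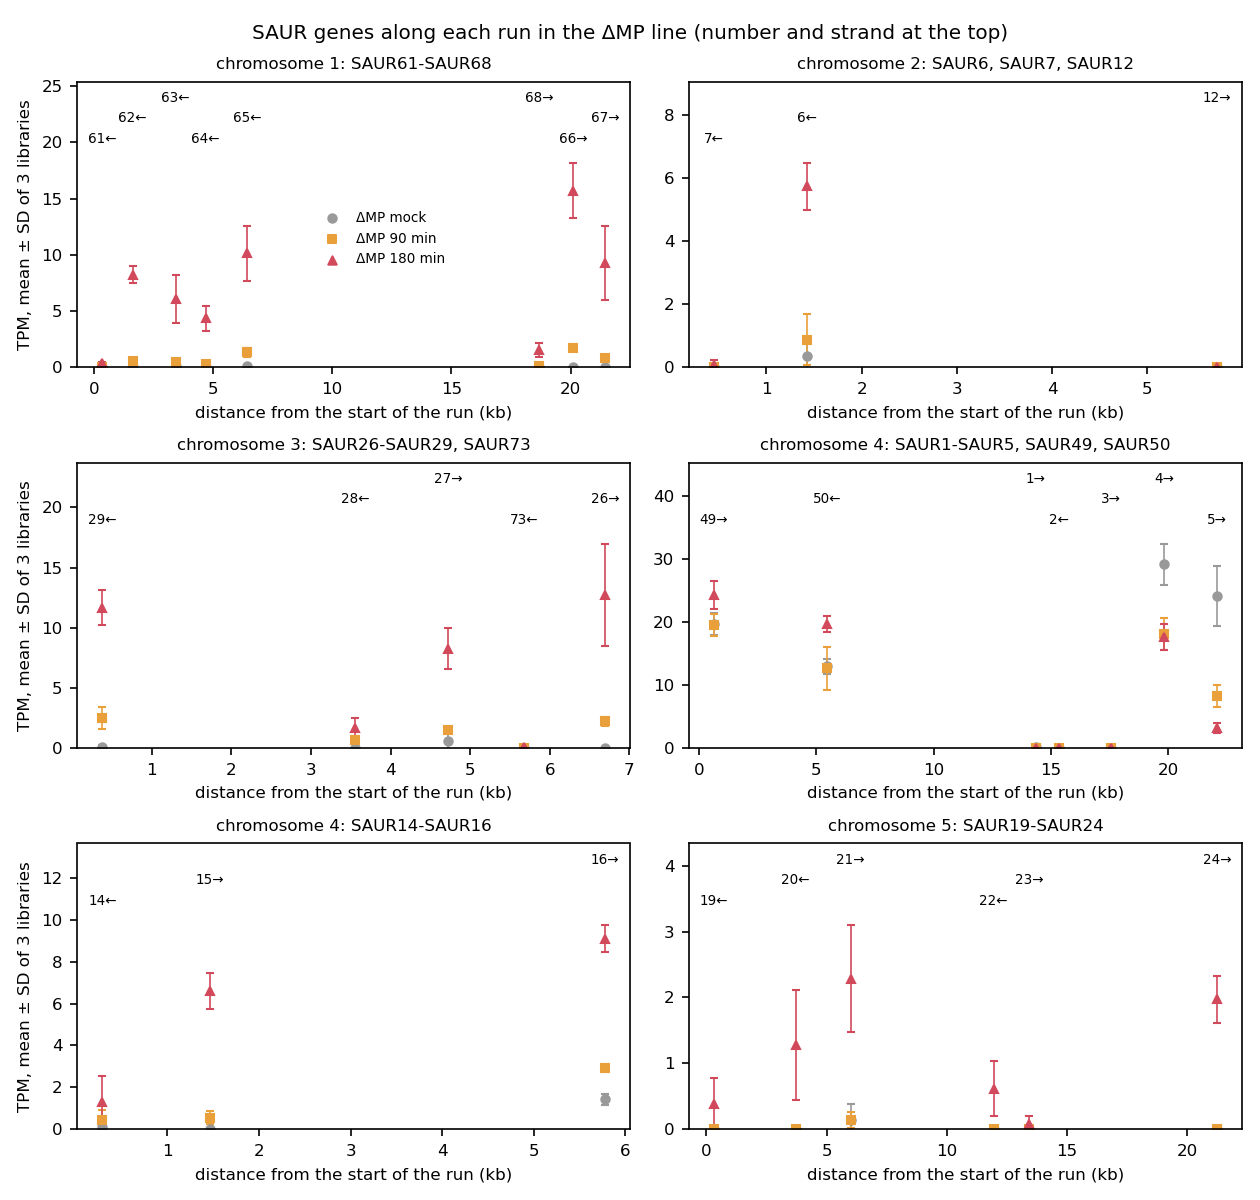
Mean level in the ΔMP line (y axis, TPM, bars are SD over 3 libraries) against the distance of each gene's middle from the start of its run (x axis, kb), for mock (circles), 90 min (squares) and 180 min (triangles). Gene numbers at the top carry the strand, and silent members such as SAUR61, SAUR12 and SAUR73 stand beside members that rose.

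Estradiol in the ΔMP line was compared with its own mock to see which members respond to activated auxin transcription. Members were called where the adjusted p was at most 0.05 and the log2 fold change at least 1 in size. Only 16 of the 32 members passed the filter on low counts, and those with few counts elsewhere passed only through their counts in ΔMP after 180 min. They therefore had to differ, and the number called is a description. After 180 min, 12 members were called higher, against 2.34% of the 19530 genes tested, and 1 (SAUR5) was called lower, against 1.31%. After 90 min, 5 members were called higher and SAUR5 lower, against 0.195% and 0.148% of genes. With only the 90-min and mock libraries in the fit the count was 1 higher (SAUR66) and 1 lower (SAUR5), because SAUR26, SAUR29, SAUR65 and SAUR67 were then below the low-count filter. The median log2 fold change over the 16 tested members was 6.42 after 180 min, and that over all genes tested was 0.01. The same filter selected these 16, so their median is a description too and does not stand for all 32 members. In the fit of run sums, those of chromosomes 1, 2, 3 and 5 passed this filter only through ΔMP libraries on estradiol. Their rises in ΔMP are therefore a description as well. Fitted fold changes of genes with no count in the mock depend on the prior count, so for these the fold is given as a bound against a floor of 3 counts over the mock group. All intervals on count ratios are 95% exact binomial intervals and cover counting error only.

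The chromosome 1 run went from near silence to a summed 55.5 ± 9.45 TPM after 180 min (SD, n = 3). SAUR66 was without counts in the ΔMP mock, was at 1.55, 2.09 and 1.54 TPM in libraries A, B and C after 90 min, and reached 16.2, 13.0 and 17.9 TPM after 180 min. Its 307 counts after 180 min made it at least 111-fold higher than mock (adjusted p = 1.4e-11), and its 49 counts after 90 min at least 12.2-fold higher (adjusted p = 0.00011). SAUR66 was the leading member of the run, with 28.3% of the summed TPM at 180 min. SAUR65 was at 0.19, 0 and 0.12 TPM in the mock, 1.6, 0.88 and 1.45 TPM after 90 min, and 7.37, 10.8 and 12.2 TPM after 180 min. Every estradiol library was above every mock library, and the log2 fold changes were 3.59 (SE 1.2, adjusted p = 0.0061) and 6.58 (SE 1.18, adjusted p = 5.2e-10). At 90 min the call of SAUR65 was lost without mock library B (adjusted p = 0.059). SAUR67 rose from 0 in the mock to 0.88, 0.64 and 0.90 TPM after 90 min and to 8.95, 6.10 and 12.7 TPM after 180 min. It was at least 4.72-fold higher after 90 min (adjusted p = 0.015), a call lost without mock library B (0.077) or C (0.084), and at least 56.7-fold higher after 180 min (adjusted p = 5.7e-10). SAUR67 shares reads with SAUR63 and SAUR62, so its level is less certain than those of SAUR65 and SAUR66.

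SAUR62, SAUR63 and SAUR64 were called at 180 min and not at 90 min. SAUR62 had no count in the mock and stood at 0.38, 0.85 and 0.30 TPM after 90 min. At 180 min it was at 8.28, 7.42 and 8.93 TPM, at least 49.9-fold higher than mock (adjusted p = 3.3e-09). SAUR64 was at 3.11, 5.34 and 4.54 TPM after 180 min and at least 31.1-fold above its mock, which had no count (adjusted p = 3.7e-07). SAUR63 had 1 count in mock library A, and reached 5.63, 4.12 and 8.34 TPM after 180 min, a ratio of 109 (95% interval 19.2 to 4367, adjusted p = 1.1e-07). In the RefSeq annotation SAUR63 and SAUR64 overlap AT1G29435 on the other strand, and the sources used here do not say whether counting used strand. SAUR68 was below the filter, with 0 counts in the mock and 20 after 180 min, at least 7.23-fold. SAUR61, at the end of the run, had 6 counts after 180 min and was silent in the mock.

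Summed over the 8 genes, the chromosome 1 run was at 0.42, 0 and 0.12 TPM in the ΔMP mock, 5.49, 5.01 and 5.04 TPM after 90 min, and 50.9, 49.3 and 66.4 TPM after 180 min. The sum rose by a log2 fold change of 4.93 (SE 0.92, adjusted p = 5.6e-08) and then 8.33 (SE 0.91, adjusted p = 2.5e-18) relative to mock. The 1032 counts at 180 min against 3 in the mock gave a ratio of 373 (95% interval 127 to 1811). AT1G29470, which is not a SAUR gene but lies inside the run, had log2 fold changes of 0.00 and 0.05 at the same times, neither past the threshold.

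**Figure D3:**
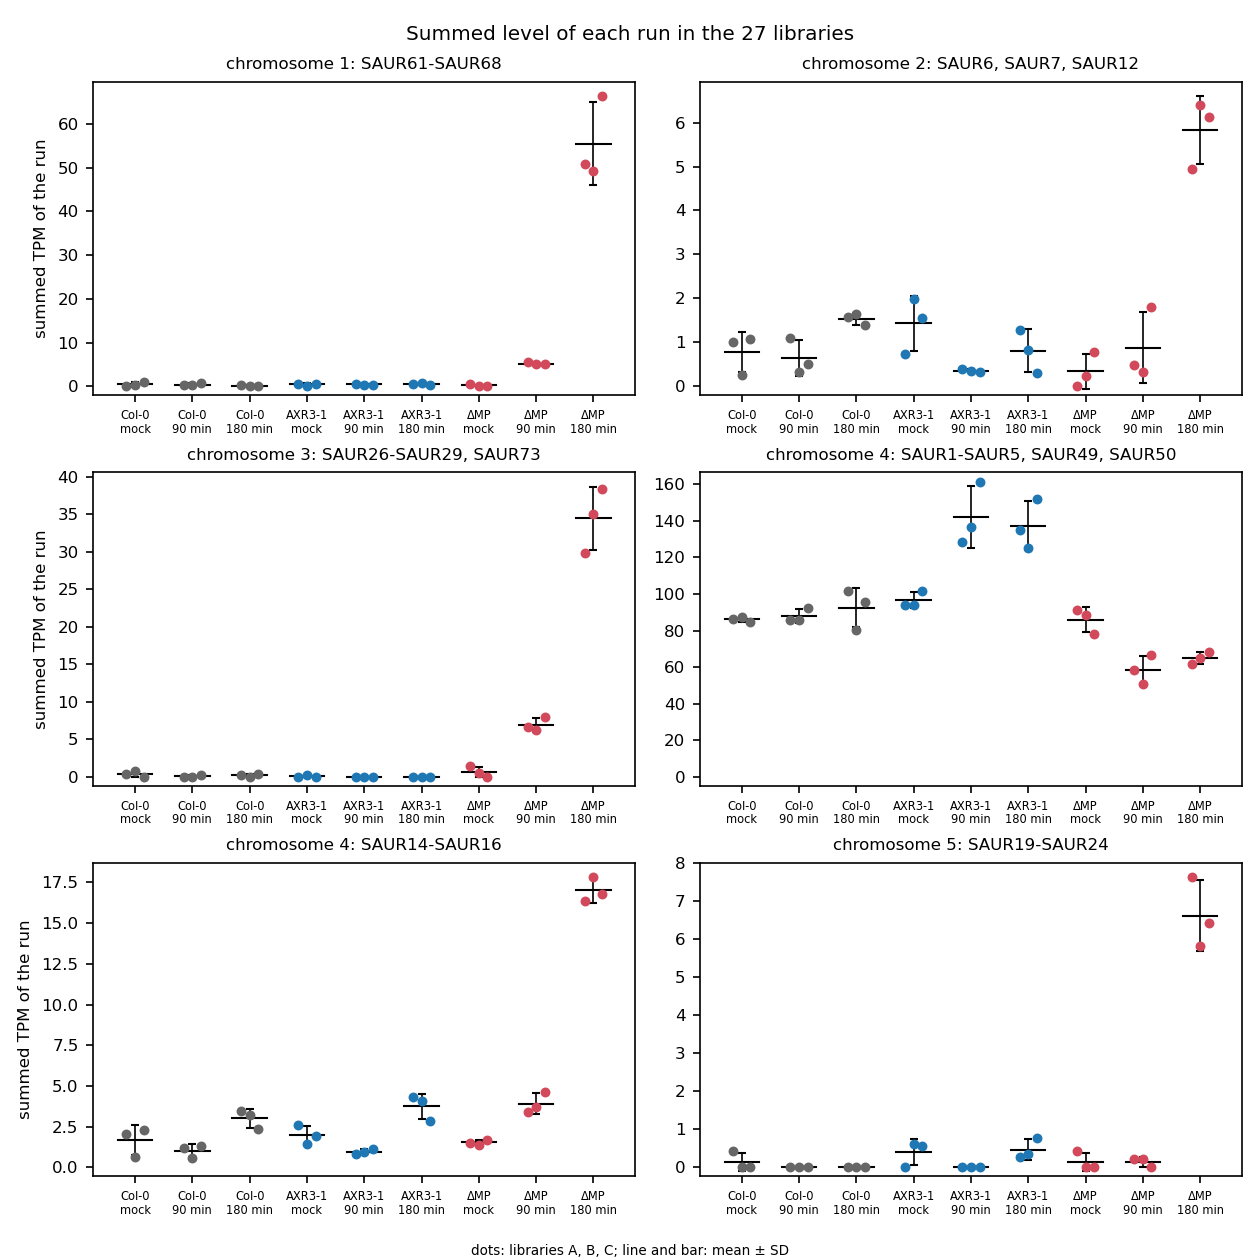
Summed TPM of the members of each run (y axis) in every library (dots) of the 9 groups (x axis), with the mean and SD of 3 libraries. In all panels except the longer chromosome 4 run the ΔMP libraries at 180 min lie above every other library, and in that run the AXR3-1 libraries on estradiol are highest (125 to 161 TPM) and the ΔMP ones lowest (51.0 to 68.2 TPM).

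The chromosome 3 run rose at both times, and 3 of its 5 members were called. SAUR26 was without counts in the ΔMP mock and reached 2.59, 1.83 and 2.27 TPM after 90 min and 8.13, 16.5 and 13.5 TPM after 180 min. It was at least 8.19-fold higher after 90 min (adjusted p = 0.0022) and at least 49.9-fold higher after 180 min (adjusted p = 3.2e-08). SAUR29 had 1 count in the mock, was at 2.25, 1.70 and 3.52 TPM after 90 min, and at 11.4, 10.4 and 13.3 TPM after 180 min. Its count ratios were 28.3 (95% interval 4.78 to 1147, adjusted p = 0.0021) and 147 (26.0 to 5866, adjusted p = 5.6e-09). SAUR27 was at 1.43, 0.25 and 0 TPM in the mock, where library A alone held 4 of its 5 counts, and at 1.41, 1.75 and 1.45 TPM after 90 min. The mock and 90-min libraries of SAUR27 overlapped, and no change passed the test there (log2 fold change 1.74, SE 0.88, adjusted p = 0.31). After 180 min SAUR27 was at 7.72, 6.89 and 10.2 TPM, a log2 fold change of 4.24 (SE 0.83, adjusted p = 1.1e-05). DESeq2 did not call it (adjusted p = 0.42). SAUR28 had 10 counts after 90 min and 16 after 180 min against none in the mock, at least 2.48- and 5.78-fold, and was below the filter. SAUR73, between SAUR27 and SAUR26, had 2 counts in all 27 libraries, so it was not detectable beside neighbours that rose. The run sum rose by 3.62 (SE 0.71, adjusted p = 3.1e-05) and 6.0 (SE 0.70, adjusted p = 4.6e-12) on the log2 scale.

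SAUR15 and SAUR16 of the shorter chromosome 4 run both rose in ΔMP, from unequal starting levels. SAUR15, long used as a marker of early auxin response, had no count in the mock, was at 0.20, 0.61 and 0.83 TPM after 90 min, and at 6.94, 7.26 and 5.64 TPM after 180 min. Its 62 counts at 180 min put it at least 22.4-fold above mock (adjusted p = 9.5e-07), while its 7 counts at 90 min did not pass the test (adjusted p = 0.23). SAUR16 was expressed in every group. In ΔMP it went from 1.15, 1.39 and 1.69 TPM in the mock to 2.72, 3.09 and 2.92 TPM after 90 min and 9.12, 9.74 and 8.45 TPM after 180 min. The libraries did not overlap at either time, and the test was passed at 180 min (log2 fold change 2.66, SE 0.36, adjusted p = 9.4e-08) and not at 90 min (0.98, SE 0.39, adjusted p = 0.17). SAUR14 had 1, 7 and 19 counts in the 3 ΔMP groups, 15 of the 19 in library C. The sum of this run rose by 1.24 at 90 min (SE 0.35, adjusted p = 0.028), a call that was lost in each refit without 1 of the 6 libraries compared and with DESeq2 (adjusted p = 0.073), and by 3.31 at 180 min (SE 0.33, adjusted p = 6.3e-11).

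On chromosome 2, SAUR6 was the only member with more than 1 count in any group. In the ΔMP mock it was at 0, 0.23 and 0.78 TPM, and after 90 min at 0.50, 0.33 and 1.80 TPM, which overlapped with mock (adjusted p = 0.70). After 180 min it reached 4.94, 6.40 and 5.89 TPM, above every other library, with a log2 fold change of 3.80 (SE 0.75, adjusted p = 2.0e-06). SAUR7 overlaps SAUR6 on the same strand, and had a single count after 180 min in ΔMP and none elsewhere. Its promoter window, with 3 TGTCTC matches, lies within the annotated SAUR6 gene.

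The 6 genes of the chromosome 5 run, the SAUR19 group whose proteins are best known as PP2C.D inhibitors, were near the limit of detection. No member passed the low-count filter. After 180 min in ΔMP, SAUR21 had 20 counts, SAUR24 had 19, SAUR20 had 14, SAUR22 had 7, SAUR19 had 3 and SAUR23 had 1. SAUR24 and SAUR20 had no count in any other group, and were at least 6.87- and 5.06-fold above the mock. SAUR21 had a count ratio to mock of 21.7 (95% interval 3.47 to 899). As reads of these genes are shared, the run sum depends less than the members on how reads were divided. It passed the low-count filter only through its counts in ΔMP after 180 min, so its change there is a description. It was 0.42, 0 and 0 TPM in the mock, 0.21, 0.21 and 0 TPM after 90 min, and 7.62, 5.80 and 6.41 TPM after 180 min. The sum rose by 5.64 on the log2 scale at 180 min (SE 1.56, adjusted p = 9.2e-07) and showed no change past the threshold at 90 min (0.43, adjusted p = 0.95). Of the genes of other kinds inside this run, AT5G18040, AT5G18065 and AT5G18070 were tested and had log2 fold changes of −0.02, −0.38 and −0.12 at 180 min, none past the threshold.

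The longer chromosome 4 run differed from all of these. SAUR5 fell in ΔMP, from 29.2, 23.3 and 19.8 TPM in the mock to 6.72, 8.01 and 10.1 TPM after 90 min and to 2.57, 4.00 and 3.03 TPM after 180 min. The 3 groups did not overlap, and the log2 fold changes were −1.54 (SE 0.21, adjusted p = 4.3e-06) and −2.82 (SE 0.30, adjusted p = 3.1e-10). SAUR4, its neighbour on the same strand, was at 30.1, 31.7 and 25.5 TPM in the mock, 18.1, 15.6 and 20.6 TPM after 90 min, and 15.5, 19.5 and 17.8 TPM after 180 min. It fell by 0.69 on the log2 scale at 90 min (SE 0.16, adjusted p = 0.0054) and by 0.65 at 180 min (SE 0.17, adjusted p = 0.0029), less than the size required for a call. At 90 min SAUR4 no longer passed without estradiol library B (−0.56, adjusted p = 0.072). The estradiol libraries of SAUR4 lay below every mock library at both times but overlapped with each other.

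SAUR49 and SAUR50, the other expressed members of this run, were nearly level at 90 min (log2 fold changes −0.01 and −0.05). SAUR50 was at 14.1, 13.0 and 11.7 TPM in the ΔMP mock and at 20.3, 18.1 and 20.4 TPM after 180 min, a rise of 0.66 (SE 0.17, adjusted p = 0.0042). SAUR49 was at 17.8, 20.2 and 21.1 TPM in the mock and 23.1, 22.9 and 26.8 TPM after 180 min (log2 fold change 0.36, SE 0.11, adjusted p = 0.016), below the size required for a call, and no longer passed without estradiol library C (adjusted p = 0.12) or mock library A (0.083). The run as a whole fell by 0.42 at 90 min (SE 0.095, adjusted p = 0.0056), less than a call requires, and no longer passed without estradiol library B (−0.33, adjusted p = 0.077). At 180 min the sum did not pass (−0.16, SE 0.097, adjusted p = 0.25), with SAUR5 and SAUR4 lower and SAUR49 and SAUR50 higher. SAUR1 and SAUR2, which lie between SAUR50 and SAUR3, had at most 2 counts in any group.

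**Figure D4:**
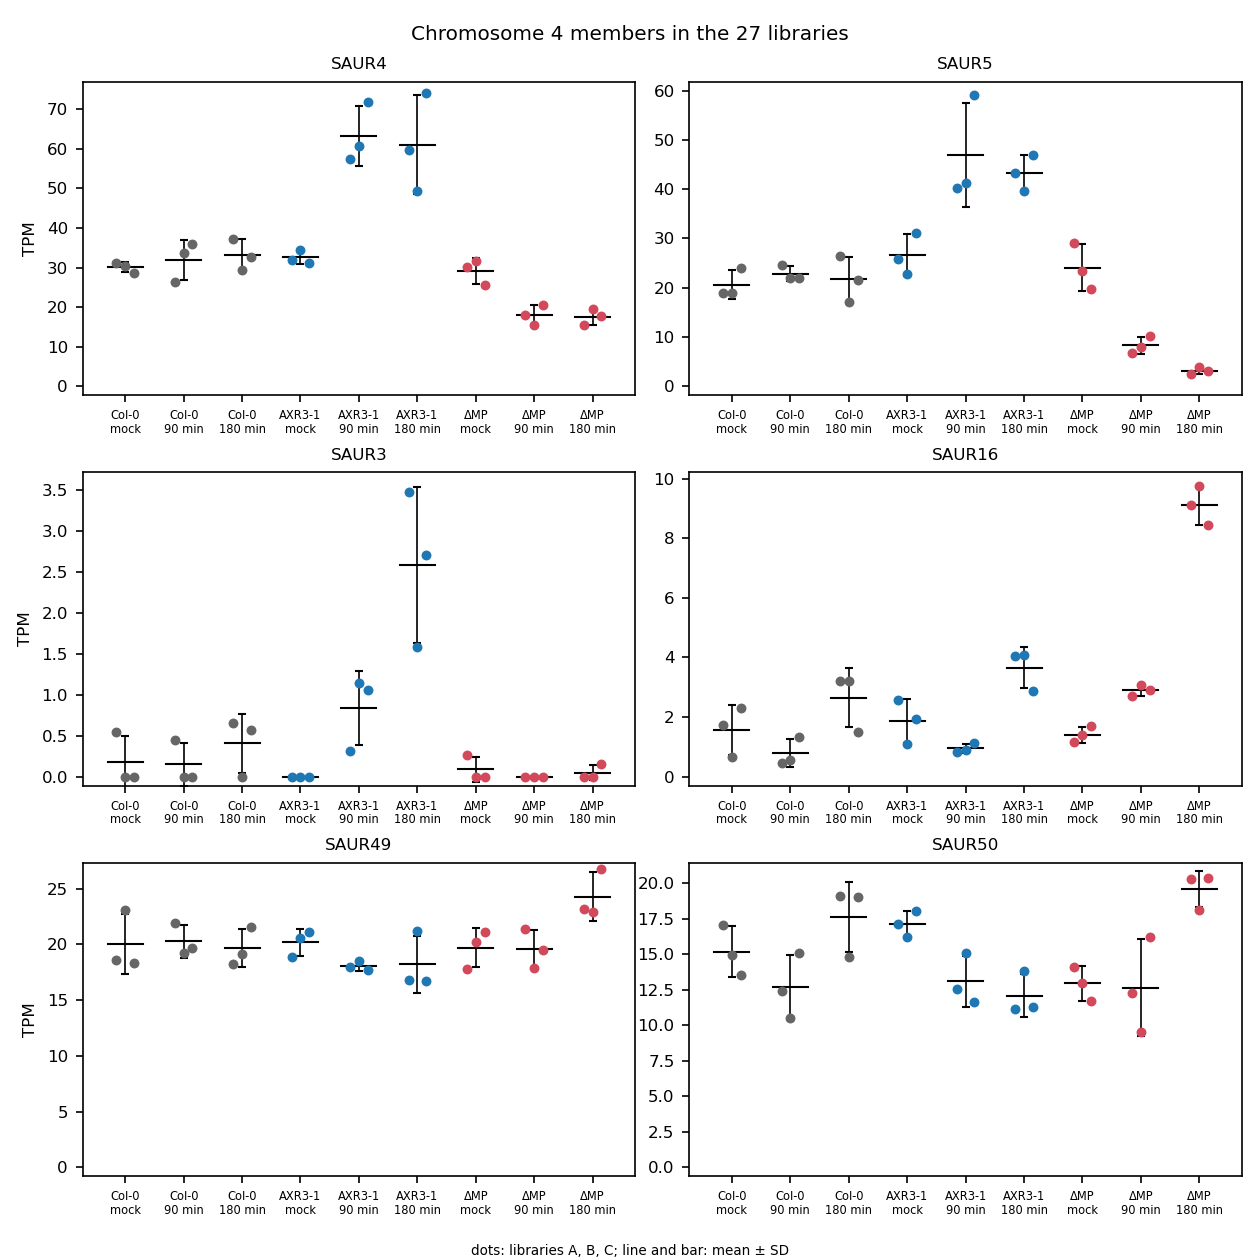
TPM (y axis) of SAUR4, SAUR5, SAUR3, SAUR16, SAUR49 and SAUR50 in every library (dots) of the 9 groups (x axis), with mean and SD of 3 libraries. SAUR4 and SAUR5 are highest in AXR3-1 and lowest in ΔMP on estradiol, and SAUR3 rises only in AXR3-1 (to 1.58 to 3.47 TPM). SAUR16 is highest in ΔMP at 180 min. SAUR50 is higher in ΔMP than in AXR3-1 at 180 min, and SAUR49 differs less.

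Estradiol in the AXR3-1 line asked what repression of auxin transcription does to the same genes. None of the 16 tested members was called at 180 or 90 min, against 2.63% and 0.533% of genes. By edgeR's quasi-likelihood test 4 and 6 members had an unadjusted p under 0.05, and DESeq2 also called none at either time. SAUR4 went from 32, 34.6 and 31.2 TPM in the mock to 57.3, 60.8 and 71.9 TPM after 90 min and 59.8, 49.3 and 74.1 TPM after 180 min. Every estradiol library lay above every mock library, and SAUR4 rose by 0.76 (SE 0.14, adjusted p = 0.00029) and 0.83 (SE 0.14, adjusted p = 1.9e-05) on the log2 scale. SAUR5 went from 25.8, 22.8 and 31.2 TPM to 40.3, 41.3 and 59.0 TPM after 90 min and 43.4, 39.5 and 46.9 TPM after 180 min, rising by 0.64 (SE 0.17, adjusted p = 0.015) and 0.65 (SE 0.17, adjusted p = 0.0042). At 90 min SAUR5 no longer passed without estradiol library C (0.42, adjusted p = 0.17), mock library A (adjusted p = 0.070) or mock library B (0.10). The libraries of SAUR5 did not overlap with mock at either time, and both SAUR4 and SAUR5, which fell in ΔMP, thus rose in AXR3-1.

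SAUR3, next to SAUR4, showed counts mainly in the AXR3-1 line. It had no count in the AXR3-1 mock, 0.32, 1.14 and 1.06 TPM after 90 min, and 3.47, 1.58 and 2.70 TPM after 180 min. Its 38 counts at 180 min were at least 13.2-fold above mock and its 10 counts at 90 min at least 3.34-fold, while the 6 groups of the other lines held 0 to 5 counts each. SAUR3 did not reach the count filter of the test. It reached the filter on TPM through the AXR3-1 estradiol libraries themselves, so the limma calls that follow are a description. With no filter it was called higher at 180 min (adjusted p = 8.3e-05), and limma after a filter on TPM called it at 180 min (log2 difference of TPM + 0.5 of 2.58, adjusted p = 1.0e-05) and at 90 min (1.36, adjusted p = 0.026). SAUR50 went from 17.1, 16.2 and 18.0 TPM to 11.1, 13.8 and 11.3 TPM after 180 min, a fall of 0.53 on the log2 scale (SE 0.18, adjusted p = 0.035), which no longer passed without any of 5 of the 6 libraries compared. SAUR49 showed no change past the threshold (−0.09, SE 0.12, adjusted p = 0.68). SAUR16 went from 2.58, 1.11 and 1.92 TPM to 4.04, 4.07 and 2.87 TPM after 180 min without passing (0.93, SE 0.37, adjusted p = 0.065), and was called without estradiol library C (1.11, adjusted p = 0.044).

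The silent runs stayed silent in AXR3-1. The chromosome 1 run held 8, 8 and 10 counts in the 3 AXR3-1 groups, the chromosome 3 run 1, 0 and 0, and the chromosome 5 run 4, 0 and 4. At this depth a decrease of these runs below their mock could not have been seen. SAUR6 was at 0.74, 1.99 and 1.56 TPM in the AXR3-1 mock and at 0.39, 0.35 and 0.32 TPM after 90 min, libraries that did not overlap, but with 18 and 4 counts the difference did not pass (log2 fold change −2.07, SE 0.89, adjusted p = 0.12).

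In Col-0, estradiol served as the control for the inducer itself. No member was called at 180 or 90 min, against 0.246% and 0.241% of genes, and no adjusted p was below 0.27. At an unadjusted p under 0.05 edgeR gave 0 and 1 members, and DESeq2 called none. SAUR4 was at 30.1 ± 1.31, 32 ± 4.97 and 33.2 ± 3.96 TPM in the mock, 90-min and 180-min groups, and SAUR5 at 20.6 ± 2.97, 22.9 ± 1.45 and 21.7 ± 4.59 TPM (SD, n = 3). The chromosome 1 run held 7, 7 and 2 counts in these groups and the chromosome 3 run 4, 1 and 2. Mock libraries of the ΔMP and AXR3-1 lines were also set against Col-0 mock, and edgeR and DESeq2 called no member in either comparison, against 0.343% and 0.087% of genes (1 and 2 members at an unadjusted p under 0.05). SAUR27 had 5 counts in the ΔMP mock and none in the Col-0 or AXR3-1 groups.

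The response of each line was tested against that of Col-0 as a difference of differences. ΔMP differed from Col-0 for 4 members at 180 min (2.49% of genes were called) and for 2 at 90 min (0.256%). The number depended on the tool, with 10 and 2 members by DESeq2, and at 180 min 13 by limma at either pseudocount and 16 by limma after a filter on TPM. At 180 min these were SAUR5, with a difference of −2.91 (SE 0.36, adjusted p = 9.5e-08), SAUR16 (1.88, SE 0.57, adjusted p = 0.028), SAUR29 (adjusted p = 0.0037) and SAUR62 (adjusted p = 0.00042). SAUR29 rests on 3 counts in Col-0 mock library B, without which its adjusted p was 0.21, and SAUR62 on 4 counts in Col-0 mock library C, without which it was 1.00. Both passed the low-count filter through their counts in ΔMP on estradiol, so the number called at 180 min is a description. SAUR16 was lost with only the groups compared in the fit (adjusted p = 0.056) and without 5 of the 12 libraries (0.060 to 0.22). For members with no count in both Col-0 groups, such as SAUR66 at 90 min, this contrast has nothing to compare with and the adjusted p was 1.00. AXR3-1 differed from Col-0 for no member at 180 or 90 min by edgeR or DESeq2 (2.39% and 0.261% of genes), with 3 and 2 members at an unadjusted p under 0.05. SAUR4 passed at 180 min below the size required (0.68, SE 0.21, adjusted p = 0.028), and no longer passed without any of 7 of the 12 libraries (0.061 to 0.093). Among the run sums, chromosome 1 differed between ΔMP and Col-0 at 180 min by 9.78 (SE 1.55, adjusted p = 2.5e-06). The Col-0 sum of this run held 7 counts in the mock and 2 at 180 min, so the size of this difference depends on few counts. Apart from the chromosome 4 runs, the sums passed the filter only through ΔMP on estradiol, so their differences are a description. For SAUR14 to SAUR16 the difference between ΔMP and Col-0 was 2.46 (SE 0.52, adjusted p = 0.0012). Chromosome 3 also passed (6.69, SE 1.59, adjusted p = 0.0044), but not without Col-0 mock library B (0.28). The runs of chromosomes 2 and 5 did not pass (adjusted p = 0.075 and 0.12). The longer chromosome 4 run did not differ past the threshold (−0.27, SE 0.14, adjusted p = 0.30). At 90 min only the chromosome 1 sum passed (5.00, SE 1.24, adjusted p = 0.017), and not without Col-0 mock library C (0.37).

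The lines were therefore also compared directly at the same estradiol time, a contrast added after the data were seen. It compares equal times but keeps any difference between the lines that was there before estradiol. At 180 min ΔMP was above Col-0 for 12 members and below it for SAUR5, 13 called members against 3.44% of genes. Members that passed the filter only through ΔMP counts at 180 min had to differ here too, so this number is a description. At 90 min 7 members were above Col-0 and SAUR5 below it (0.906% of genes). Among the 7 was SAUR27 (edgeR adjusted p = 0.015), which had not passed against its own mock at that time. SAUR27 had counts in the ΔMP mock and none in the Col-0 groups. SAUR66 differed from Col-0 by 7.52 at 180 min (SE 1.51, adjusted p = 1.4e-10), SAUR6 by 1.90 (SE 0.50, adjusted p = 0.0023) and SAUR16 by 1.77 (SE 0.33, adjusted p = 5.3e-05). By edgeR AXR3-1 differed from Col-0 for no member at 180 min (3 members at an unadjusted p under 0.05) and for SAUR5 at 90 min, against 2.57% and 0.486% of genes. SAUR5 was higher by 1.01 in AXR3-1 at 90 min (SE 0.17, adjusted p = 0.00022) and SAUR4 by 0.97 (SE 0.14, adjusted p = 2.0e-05), close to the size required for a call.

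ΔMP and AXR3-1 responses differed from each other for 8 members at 180 min (6.84% of genes) and 4 at 90 min (1.1%), against 14 and 4 by DESeq2. SAUR5 and SAUR4 responded in opposite directions, with differences of −3.47 (SE 0.35, adjusted p = 1.2e-10) and −1.48 (SE 0.21, adjusted p = 1.4e-06) at 180 min. SAUR50 differed in the other direction, by 1.19 (SE 0.25, adjusted p = 0.00040). Compared directly, 14 members were called at 180 min and 9 at 90 min, against 7.94% and 1.64% of genes. Both numbers at 180 min, of responses and of direct differences, are again descriptions, because the filter admitted members through their ΔMP counts at that time. These comparisons share libraries with those above, so they repeat part of the same evidence.

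Between 90 and 180 min, 12 members were called higher in ΔMP and SAUR5 lower, against 2.09% and 0.963% of genes. Members that passed the filter only through their ΔMP counts at 180 min had to be higher here, so this number is a description. DESeq2 did not call SAUR27 over this interval (adjusted p = 0.68). The chromosome 1 run sum rose by a further 3.4 on the log2 scale (SE 0.20, adjusted p = 5.8e-15), that of chromosome 3 by 2.38 (SE 0.27, adjusted p = 4.2e-08) and that of SAUR14 to SAUR16 by 2.07 (SE 0.24, adjusted p = 2.3e-08). SAUR4 did not move further (0.04, SE 0.17, adjusted p = 0.92), while SAUR5 fell by another 1.28 (SE 0.32, adjusted p = 0.0017). In the other lines SAUR16 was the only member called over this interval, and it rose in both. It went up by 2.07 in AXR3-1 (SE 0.47, adjusted p = 0.00056, against 1.82% of genes called) and by 1.76 in Col-0 (SE 0.53, adjusted p = 0.025, against 0.507%). In Col-0 SAUR16 was at 0.48, 0.56 and 1.32 TPM at 90 min and 3.21, 3.22 and 1.50 TPM at 180 min, and the call was lost without library A or B of either group (adjusted p 0.081 to 0.19). SAUR16 was thus also called over this interval in the line without a transgene, although that call was easily lost. Neither AXR3-1 nor Col-0 passed for SAUR16 at 180 min against mock. At 90 min the sum of its run was below mock in Col-0 and AXR3-1 (log2 fold changes −0.80 and −1.19), neither past the threshold. The level of SAUR16 at 180 min was highest in ΔMP (9.10 ± 0.65 TPM, against 3.66 ± 0.69 in AXR3-1 and 2.64 ± 0.99 in Col-0, SD, n = 3).

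The genes whose products SAUR proteins act on were counted at 180 min by an adjusted p up to 0.05 with a change of any size. At that threshold 12.7% of all genes were higher and 12.1% lower in ΔMP, and 10.6% higher and 8.88% lower in AXR3-1. Of the 9 D-clade PP2C phosphatase genes, all tested, 2 were higher and 1 lower in ΔMP, while in AXR3-1 2 were lower and 0 higher. Values follow for the 2 that rose in ΔMP, and the gene that was lower there is not listed by name. PP2C.D7 (AT5G66080) rose from 8.29 ± 0.35 TPM in the ΔMP mock to 24.9 ± 0.91 TPM at 180 min (log2 fold change 1.61, adjusted p = 2.3e-17) and in AXR3-1 fell from 8.47 ± 0.28 to 4.68 ± 0.43 TPM (−0.82, adjusted p = 2.4e-08). PP2C.D2 (AT3G17090) rose from 72.3 ± 2.66 to 127 ± 7.05 TPM in ΔMP and fell from 69.8 ± 1.26 to 53.1 ± 1.92 TPM in AXR3-1 (log2 fold changes 0.83 and −0.37). Of the 11 plasma membrane H+-ATPase genes, 9 were tested. In ΔMP 2 were higher and 1 lower, and in AXR3-1 AHA1 was higher and AHA7 lower. Besides AHA7, the pump genes that were higher or lower in ΔMP are not listed by name. AHA7 (AT3G60330) went from 10.7 ± 1.35 to 14.3 ± 1.32 TPM in ΔMP (0.45, adjusted p = 0.0028) and in AXR3-1 fell from 11.1 ± 0.75 to 3.94 ± 0.61 TPM (−1.46, adjusted p = 1.5e-10). AHA2 and AHA1, which made up most of the summed pump transcript, had log2 fold changes of −0.11 and −0.02 in ΔMP at 180 min, neither past the threshold.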

How the data were processed

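Root tip RNA of the 3 lines was read as poly(A) libraries, and per the labels the authors quantified transcripts with Salmon 1.3.0 against TAIR10 coding sequences after trimming (Trimmomatic is named in the submitters' processing notes, other trimming tools in the study's methods). The deposited files hold, per library and transcript, TPM and estimated counts, both made by the authors. Coding sequences without UTRs were the reference, so reads from UTRs were not counted. The files' columns of length were used only to check the annotation.

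TPM and estimated counts were summed per locus, and the estimated counts were then rounded to whole numbers. Tests used edgeR 4.0.16 (quasi-likelihood, R 4.3.3) on all 9 groups, with filterByExpr, TMM scaling, 18 residual degrees of freedom and Benjamini-Hochberg adjustment over 19530 genes. Genes were called where the adjusted p did not exceed 0.05 and expression differed by 1 or more on the log2 scale. Run sums replaced their members in a second fit. Standard errors are not given where a group had no count. Sequences came from RefSeq TAIR10.1, in which all 32 loci were found (31 with the coding length of the files), and were searched with Python 3.11.15 and Biopython 1.88. Members with at least 10 counts over a group were named, with some of the partner genes that passed a test. The members and lists were chosen with earlier results of these data known, and the direct comparisons at the same estradiol time were added after seeing the data.

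Library totals, DESeq2 1.42.0, no filter, limma 3.58.1 on log2(TPM + 0.5) or log2(TPM + 1), a filter of 1 TPM in 3 libraries, a replicate block, the compared groups alone, no minimum fold, and leaving out each library were the alternatives. The edgeR script was tested on simulated counts. No 2 replicates differed by as little as sampling noise (lowest chi-square per gene 2.33). Intervals and floors cover counting error only. Libraries of 13634037 to 34272503 read pairs limit what can be seen of members with few counts.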

Additional observations from a re-analysis of the deposited data

Results flagged for a closer look

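The differences of response past the threshold are given here as log2 values, ΔMP minus the other line, with edgeR's adjusted p. Against AXR3-1 at 180 min they were −3.47 for SAUR5 (1.2e-10), −1.48 for SAUR4 (1.4e-06), 1.19 for SAUR50 (0.00040), 4.58 for SAUR6 (0.00012) and 1.73 for SAUR16 (0.012). SAUR66, SAUR67 and SAUR64 gave 9.26 (0.00079), 9.17 (0.0015) and 9.74 (0.029), values that depend on the prior count because 1 or more groups had no count. The calls of SAUR64 and SAUR67 rest on AXR3-1 mock library C and A, and the adjusted p was 1.00 without either. SAUR16 was lost without AXR3-1 mock library A (0.071).

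Against AXR3-1 at 90 min the differences were −2.17 for SAUR5 (5.5e-07), −1.45 for SAUR4 (9.3e-06), 2.12 for SAUR16 (0.032) and 9.71 for SAUR66 (0.0068). SAUR66 rests on AXR3-1 mock library C (adjusted p = 0.11 without it), and SAUR16 was lost with DESeq2 (0.061) and in 7 refits without 1 library (0.064 to 0.12).

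Against Col-0 the differences at 180 min were −2.91 for SAUR5 (9.5e-08), 1.88 for SAUR16 (0.028), 7.4 for SAUR29 (0.0037) and 12.23 for SAUR62 (0.00042). At 90 min they were −1.61 for SAUR5 (0.00099) and 8.06 for SAUR29 (0.038), the latter lost in 9 refits without 1 library (0.051 to 0.38). The values of SAUR62 at 180 min and SAUR29 at 90 min also depend on the prior count. SAUR6, SAUR29, SAUR62, SAUR64, SAUR66 and SAUR67 passed the low-count filter only through their ΔMP counts on estradiol. Their differences in this section are therefore a description.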

How the results depend on the processing

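Over 66 results for members and 1044 refits, 971 kept their direction and side of the threshold, 73 lost the threshold and 0 reversed, and over 30 run sums and 342 refits the numbers were 322, 20 and 0. The count of members called for ΔMP against mock at 180 min was 13, and 12 with DESeq2, 16 with limma after a filter on TPM or no minimum fold, and 19 with no low-count filter. That at 90 min went from 6 to 2 with only the compared groups, where 6 members were tested. AXR3-1 against mock at 180 min went from 0 to 1 with no low-count filter or limma after a filter on TPM (SAUR3 both times) and 3 with no minimum fold, and at 90 min from 0 to 1 with the TPM filter and 2 with no minimum fold. The count for ΔMP relative to Col-0 at 180 min, 4, became 10 with DESeq2, 13 with limma at either pseudocount, 16 with the TPM filter and 13 for the direct difference, and that at 90 min, 2, became 6 and 4 with limma at 0.5 and 1, 7 with the TPM filter, 1 with only the compared groups and 8 for the direct difference. AXR3-1 relative to Col-0 went from 0 to 1 at 180 min with the TPM filter or no minimum fold, and at 90 min to 1 for the direct difference. ΔMP relative to AXR3-1 at 180 min went from 8 to 14 with DESeq2, 15 with limma at either pseudocount, 19 with the TPM filter and 14 directly, and at 90 min from 4 to 8 and 7 with limma, 9 with the TPM filter and 9 directly. Between 90 and 180 min AXR3-1 went from 1 to 2 with the TPM filter and Col-0 from 1 to 0 with only the compared groups. The TPM filter tested 20 members and no filter 30, against 16, and other causes were not tested. Leaving out 1 library gave 0 to 1 for AXR3-1 at 180 min, 2 to 5 for ΔMP relative to Col-0 at 180 min (2 without Col-0 mock library C), 1 to 2 at 90 min, 2 to 4 for ΔMP relative to AXR3-1 at 90 min (2 without AXR3-1 mock library C), 1 to 2 between times in AXR3-1 and 0 to 1 in Col-0.

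The replicate block moved no count (13 members for ΔMP at 180 min) and ended no call, but SAUR49, below the size of a call, no longer passed for ΔMP relative to AXR3-1 at 180 min (0.45, adjusted p = 0.052). Libraries of the same letter correlated at −0.18 to 0.20 in their deviations, over 0.1 in 2 of 33 pairs, so the letters were not taken as pairs.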
